A study of Mus musculus with 6 samples.

Results

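Interferon-stimulated genes are the genes that cells switch on when an interferon binds its receptor. In the deposited counts table, 33 rows out of 55401 carried the Ensembl identifiers of 33 such mouse genes, chosen by symbol, and every listed symbol was found. All 33 were expressed enough to be tested, among 16757 genes tested in all.

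As background, type I interferons act through the receptor Ifnar1 and Ifnar2 and the kinases Jak1 and Tyk2, which phosphorylate Stat2. Stat2 and Irf9 are parts of a complex that binds the interferon-stimulated response element in promoters, while type II interferon (Ifng) acts through gamma-activated sites. In the infarcted mouse heart, macrophages that take up DNA of dying cells are a known source of type I interferon, and the response has been linked to inflammation and poorer outcome.

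RNA was counted per gene in 6 libraries of hearts that had undergone myocardial infarction, and the comparison asks what mild cold does to the heart after an infarct. Per the labels, the mild cold group (n = 3) was kept at 16 °C for 7 days and the room temperature group (n = 3) at 22 °C, for a time that the labels do not give. All 6 libraries came from mice with an infarct, and no uninfarcted or sham-operated group was analysed, so the values describe a difference between temperatures on top of the infarct. Strain, genotype, sex, age and the time between infarct and exposure are not given in the labels, nor is it said that each library is a separate animal, so the p-values cover only library-to-library spread, which may be technical.

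Total counts lay between 41619023 and 65285901 per library, and the members held between 24 and 5913 counts each. Levels below are given as CPM, the count relative to library size, scaled by TMM, a method that corrects for library composition, and a fold or log2 difference is always mild cold over room temperature. Summed CPM of 5 cardiomyocyte markers lay between 16841 and 30532 in all 6 libraries. The labels name the whole heart, but the atrial light chain Myl7 was at 602 CPM in room temperature 1 and at 0.431 CPM or less in the other 5. Albumin (Alb), a liver transcript, was at 118 and 188 CPM in mild cold 1 and 3 and between 0.136 and 21.1 CPM in the other 4. Mitochondrially encoded genes took 26.2% to 41.0% of counts, with the highest share in mild cold 2.

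RefSeq promoter sequences of build GRCm38.p6 matched 25 of the 33 members. The letters searched on both strands were GAAANNGAAA, the core of the interferon-stimulated response element, where N is any base, and TTCNNNGAA, the core of the gamma-activated site, which reads alike on both strands. In the 250 bases before the start, 12 of 25 members (48.0%) held the response element core, against 3.46% of 27025 genes, and 7 held it more than once, overlapping copies included. Including the first 50 transcribed bases, 15 of 25 (60.0%) held it, against 3.99% of genes. The gamma-activated site core was in 6 of 25 members (24.0%) and 8.13% of genes in the 250 bases. A match of letters is a description and not a bound site. Usp18, Mx1, Mx2, Oas2, Dhx58, Parp14, Ifi27l2a and Rtp4 had no entry.

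Members without a response element core before the start, or without an entry, have no window to show, Ifi27l2a and Mx1 among them. The windows shown here are of some of the members with a core. Each runs in the direction of the gene, 20 bases to either side of the response element cores in the 250 bases before the start, with the cores in capitals, and is from GRCm38.p6. In Ifit1 (chr19:34640765-34640833, plus strand) the core nearest the start lay at bases -85 to -76, counted back from the start. In Ifit3 (chr19:34583353-34583436, plus strand) it lay at -122 to -113. The Ifit3b window (chr19:34607749-34607832, plus strand) was identical to that of Ifit3 over 84 of 84 bases. In Rsad2 (chr12:26456543-26456592, minus strand) the core lay at -120 to -111, and in Gbp2 (chr3:142620584-142620633, plus strand) at -59 to -50. In Gbp3 (chr3:142559979-142560034, plus strand) and Isg15 (chr4:156200855-156200916, minus strand) overlapping copies ended at -30 and at -57.
Ifit1: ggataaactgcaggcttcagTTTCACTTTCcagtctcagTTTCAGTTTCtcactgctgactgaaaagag
Ifit3: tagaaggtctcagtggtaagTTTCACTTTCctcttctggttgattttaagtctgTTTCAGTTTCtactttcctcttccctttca
Rsad2: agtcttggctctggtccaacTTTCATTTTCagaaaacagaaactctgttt
Gbp2: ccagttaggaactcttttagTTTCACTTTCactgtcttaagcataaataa
Gbp3: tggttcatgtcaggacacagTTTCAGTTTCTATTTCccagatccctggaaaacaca
Isg15: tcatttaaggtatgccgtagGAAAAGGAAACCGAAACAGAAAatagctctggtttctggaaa
In the last of these the core stands on the strand shown, and in the other five on the opposite strand.

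No interferon-stimulated gene passed the test between mild cold and room temperature. With edgeR's quasi-likelihood test, 0 of 33 members had a Benjamini-Hochberg adjusted p under 0.05, where 0% of all 16757 genes did, and the smallest adjusted p was 0.158 for Ifi27l2a. At an unadjusted p under 0.05, 2 members were lower in mild cold (Ifi27l2a and Mx1), beside 10.6% of all genes, and 0 were higher, beside 9.11% of all genes. The DESeq2 Wald test and limma-voom also called 0 members, although the Wald test called 1414 of all genes. The log2 difference was negative for 22 members, beside 52.3% of all genes, and its median over the members was -0.05, beside -0.02 over all genes. In levels, 1 member (Mx1) was lower in every mild cold library than in every room temperature library, beside 13.1% of all genes, and 0 were higher in every mild cold library, beside 12% of all genes. Summed over the 33 members, the level was 624 ± 162 CPM in mild cold (SD, n = 3) and 678 ± 43.2 CPM at room temperature (SD, n = 3). Without Ifi27l2a, the other 32 summed to 596 ± 157 CPM in mild cold against 598 ± 39.8 CPM at room temperature (SD, n = 3 each), so the gap between the means was almost all Ifi27l2a. In a bulk sample, fewer cells of a type and less RNA per cell cannot be told apart.

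Scaling by library totals alone moved the median log2 difference of all genes to -0.27 and that of the members to -0.31, with 32 of 33 negative. Under that scaling 356 genes passed the test, 10 higher and 346 lower, with no member among them. The sign of a member whose difference is close to 0 therefore depends on the scaling, and the directions below are those with TMM.

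**Figure D1:**
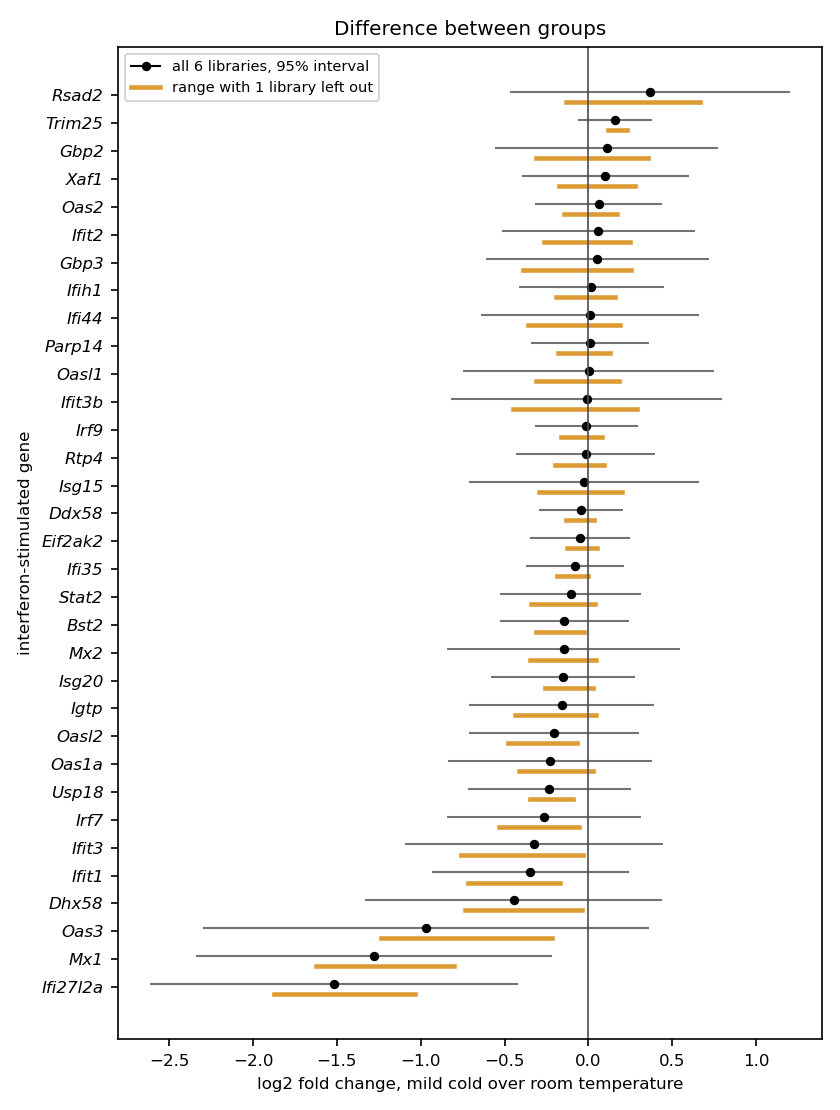
Log2 difference of each of the 33 genes, mild cold over room temperature (x axis, edgeR, TMM scaling), with its 95% interval (thin line) and the range of the estimate when each of the 6 libraries is left out in turn (thick line). Intervals of Ifi27l2a and Mx1 leave out 0, their adjusted p-values are 0.158 and 0.195, and the other 31 intervals include 0.

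A difference between libraries of the same group ran through all members. Mild cold 2 had the highest level of the 3 mild cold libraries for 33 of 33 members, against 38.4% of all genes tested, and the highest of all 6 libraries for 22. Within mild cold the lowest library was mild cold 3 for 19 members and mild cold 1 for 14. At room temperature, library 3 was the highest of its group for 22 members, against 33% of all genes, library 2 for 8 and library 1 for 3. On a log2(CPM + 0.5) scale, relative to each gene's mean over the 6 libraries, the members averaged -0.30, 0.31 and -0.26 in mild cold 1, 2 and 3. They averaged -0.03, 0.02 and 0.26 at room temperature 1, 2 and 3. The medians of all tested genes on the same scale lay between -0.01 and 0.01 in every library.

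Within mild cold, the members also spread over a wide range. The median ratio of the highest to the lowest mild cold library was 1.73 over the members and 1.30 over all genes tested. At room temperature the corresponding medians were 1.33 and 1.32. In mild cold this ratio ran from 1.07 for Isg20 to 2.90 for Rsad2. Among the 25 members with a RefSeq promoter, its median was 2.10 in the 12 with a response element core before the start and 1.6 in the 13 without; the medians of the log2 difference between groups were -0.13 and -0.01 there. These splits are descriptions with no test. Of the 13, Ddx58, Eif2ak2 and Ifih1 held the core once the first 50 transcribed bases were included. Their ratios were 1.25, 1.26 and 1.6. No split was made with those bases included, so the medians hold only for cores before the start. Ifit3 and Ifit3b, with ratios of 2.71 and 2.76, each count among the 12, although their promoter windows were identical.

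**Figure D2:**
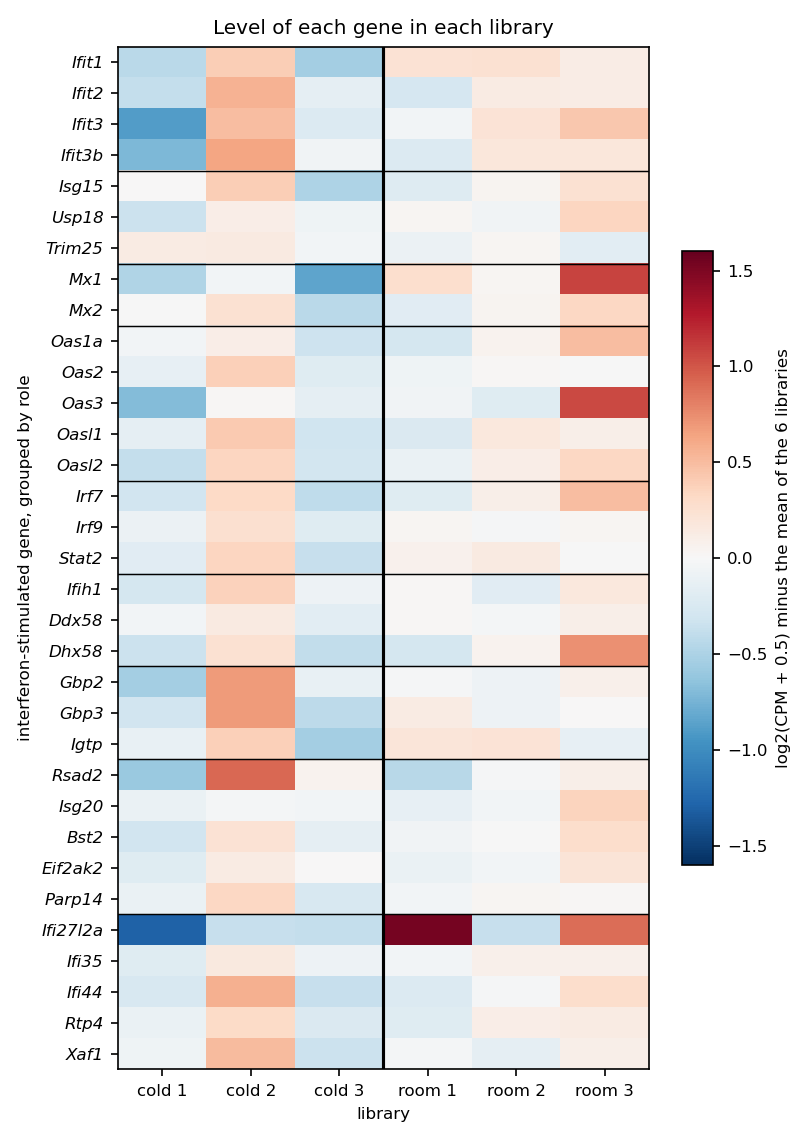
Level of each of the 33 genes (rows, grouped by role) in each of the 6 libraries (columns, mild cold left of the line and room temperature right of it), as log2(CPM + 0.5) minus the gene's mean over the libraries. The column of mild cold 2 is the highest of the mild cold columns in all 33 rows, and its mean is 0.31 against -0.30 and -0.26 for the libraries beside it.

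Leaving out mild cold 2 shifted the members down. As that library was the highest mild cold library for 33 of 33 members, lower differences without it were given in advance. Without it, 32 of 33 members had a negative log2 difference, beside 54.3% of all genes, with Trim25 as the exception, and the median over the members was -0.31 against -0.04 over all genes. In levels, 18 members were then lower in both remaining mild cold libraries than in every room temperature library, beside 19.6% of all genes. Still 0 members passed the test, the smallest adjusted p was 0.160, and 7 were lower at an unadjusted p under 0.05, beside 9.05% of all genes. Leaving out mild cold 3 or room temperature 3 gave medians of 0.04 and 0.03, with 14 and 15 of 33 members negative. The medians over all genes were then -0.01 and -0.004. The sign of the members' median thus changed with single libraries.

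The Ifit genes encode RNA-binding proteins that block translation of viral RNA. Ifit1 was at 8.31, 15.1 and 7.67 CPM in mild cold 1, 2 and 3 and at 13.4, 13.5 and 12.5 CPM at room temperature 1, 2 and 3. Mild cold 1 and 3 lay below every room temperature library and mild cold 2 above them, so the groups overlapped. The fold was 0.787 (95% interval 0.524 to 1.18, adjusted p = 0.488), and without mild cold 2 the log2 difference moved from -0.35 to -0.72.

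Ifit3 was at 10.9, 29.5 and 17.9 CPM in mild cold and at 20.2, 24.3 and 28.3 CPM at room temperature. The pattern was that of Ifit1, with mild cold 2 above and the other 2 mild cold libraries below all of room temperature. Its fold was 0.798 (0.468 to 1.36, adjusted p = 0.629). Ifit3b, its neighbour, was at 7.48 ± 3.68 CPM in mild cold against 7.51 ± 1.2 CPM at room temperature (SD, n = 3 each). The pair cannot be told apart cleanly, since 51.2% of sampled 50-base stretches of Ifit3 transcripts also occur in another gene, Ifit3b. Ifit2 ran from 27.2 CPM in mild cold 1 to 52.5 CPM in mild cold 2, a range that held all 3 room temperature libraries (29.4 to 39.1 CPM).

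Isg15 encodes a ubiquitin-like protein that is attached to other proteins, Usp18 encodes the protease that removes it, and Trim25 encodes a ubiquitin ligase that acts on the RNA sensor Ddx58. Isg15 was at 3.48, 4.72 and 2.32 CPM in mild cold and at 2.94, 3.57 and 4.19 CPM at room temperature, and the highest and the lowest value were both in mild cold. Usp18 was at 4.37 ± 0.750 CPM in mild cold against 5.12 ± 0.832 CPM at room temperature (SD, n = 3 each; adjusted p = 0.583). Trim25 was at 69.0, 69.4 and 60.9 CPM in mild cold and at 58.6, 63.9 and 55.9 CPM at room temperature. Of the 3, Trim25 alone kept a positive log2 difference whichever library was left out, between 0.12 and 0.23, with an adjusted p of 0.390 with all 6.

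Mx1 is named for a dynamin-like GTPase that traps viral components, and Mx2 is its relative, annotated in GENCODE M21 as a polymorphic pseudogene. Mx1 was at 0.926, 1.42 and 0.605 CPM in mild cold and at 1.89, 1.53 and 3.70 CPM at room temperature. Every mild cold library was below every room temperature library, with mild cold 2 (1.42) close to room temperature 2 (1.53). The fold was 0.412 (95% interval 0.198 to 0.861), a log2 difference of -1.28 with a standard error of 0.45 and an adjusted p of 0.195. It moved to -0.80 without room temperature 3, the library with the highest level, and to -1.63 without mild cold 2. Mx2 overlapped between groups, at 1.61 to 2.87 CPM in mild cold and 2.0 to 3.09 CPM at room temperature.

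The Oas family is named for the synthetases of oligoadenylates, which activate RNase L; Oasl1 lacks that activity and in mice limits translation of Irf7. Oas3 was at 0.390, 0.965 and 0.807 CPM in mild cold and at 0.893, 0.767 and 2.5 CPM at room temperature. The difference came mostly from room temperature 3: the log2 difference of -0.97 (adjusted p = 0.390) moved to -0.22 without it. Oas1a, whose transcripts share 57.1% of sampled 50-base stretches with Oas1g, was at 3.43 to 4.83 CPM in mild cold and 3.57 to 6.46 CPM at room temperature.

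Oas2 was the most abundant of the family in CPM, at 20.9, 30.1 and 20.02 CPM in mild cold and at 21.9, 23.4 and 22.8 CPM at room temperature. Here mild cold 1 and 3 lay just under the narrow room temperature range and mild cold 2 above it. Oasl2 was at 18.0 ± 5.39 CPM in mild cold against 20.8 ± 3.25 CPM at room temperature, and Oasl1 at 1.95 ± 0.688 and 1.95 ± 0.346 CPM (SD, n = 3 each).

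Irf7, Irf9 and Stat2 encode the transcription factors among the members. Irf7, which amplifies type I interferon production, was at 9.88, 15.4 and 9.18 CPM in mild cold and at 10.7, 13.2 and 17.4 CPM at room temperature. Mild cold 1 and 3 lay below and mild cold 2 within the room temperature range. Its log2 difference was -0.26 (standard error 0.25, adjusted p = 0.60).

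Stat2 was at 25.7, 37.1 and 22.5 CPM in mild cold and at 30.5, 32.2 and 29.1 CPM at room temperature. Irf9 was at 22.7, 29.3 and 21.2 CPM in mild cold and at 24.9, 24.0 and 24.9 CPM at room temperature. For both partners in the response element complex, mild cold 2 was the highest of all 6 libraries and mild cold 1 and 3 were the lowest. Log2 differences were -0.11 for Stat2 and -0.01 for Irf9.

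**Figure D3:**
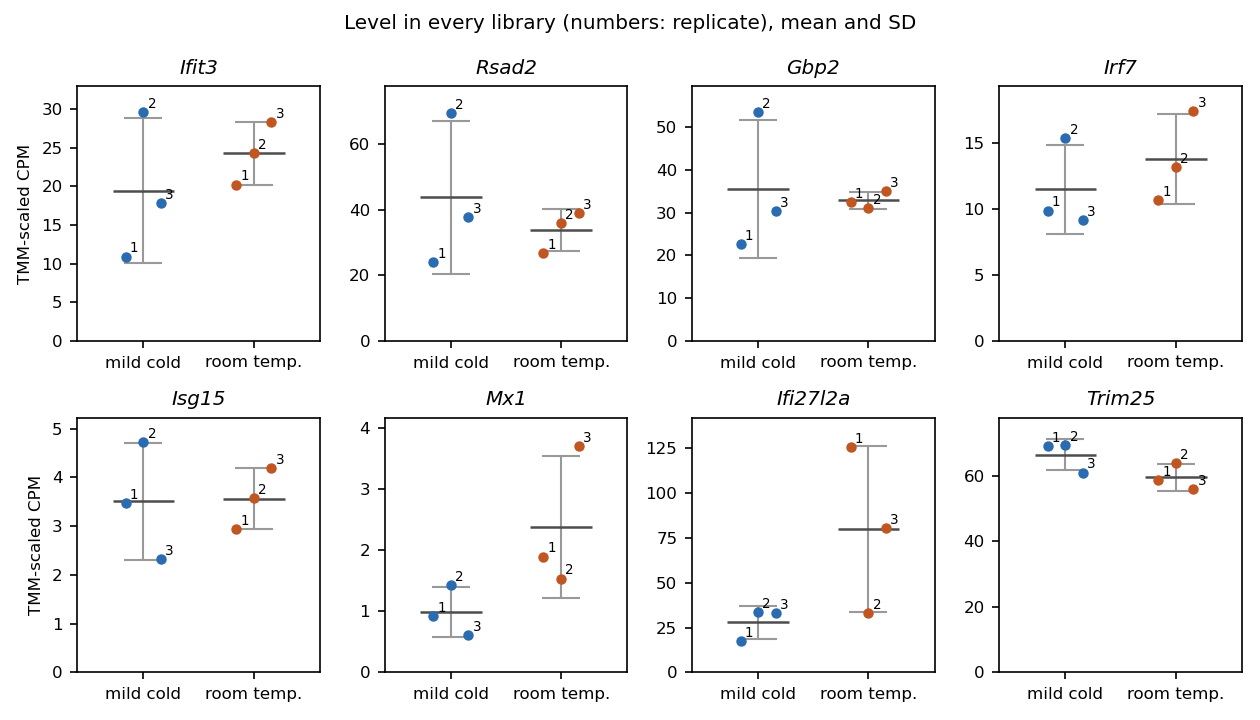
TMM-scaled CPM of 8 members in every library, with the replicate number beside each point, the group mean (horizontal line) and SD (bars, n = 3). Mild cold 2 is the top mild cold point in each panel, and Mx1 is the panel in which no mild cold library reaches a room temperature library.

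The cytosolic RNA sensors Ifih1 (MDA5) and Ddx58 (RIG-I) and their relative Dhx58 (LGP2) did not pass the test. Ifih1 was at 20.6 ± 5.08 CPM in mild cold against 20.3 ± 2.51 CPM at room temperature, and Ddx58 at 27.9 ± 3.19 and 28.8 ± 1.26 CPM (SD, n = 3 each). Dhx58 was at 1.77, 2.92 and 1.69 CPM in mild cold and at 1.87, 2.49 and 4.28 CPM at room temperature. Its log2 difference of -0.45 (adjusted p = 0.557) moved to -0.04 without room temperature 3.

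Gbp2, Gbp3 and Igtp encode interferon-inducible GTPases that act on membranes around intracellular pathogens and respond strongly to type II interferon. Gbp2 was at 22.6, 53.5 and 30.4 CPM in mild cold and at 32.5, 31.1 and 35.0 CPM at room temperature. Gbp3 was at 18.4, 36.9 and 17.0 CPM in mild cold and at 25.1, 21.6 and 23.0 CPM at room temperature. In both, mild cold 2 stood above and mild cold 1 and 3 below a tight room temperature group. Without mild cold 2, the log2 difference moved from 0.11 to -0.31 for Gbp2 and from 0.05 to -0.39 for Gbp3, with adjusted p-values of 0.327 and 0.192. Igtp, which shares 12.1% of sampled stretches with Irgm2, ran from 10.5 to 20.4 CPM in mild cold and from 14.2 to 18.2 CPM at room temperature.

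Rsad2 (viperin), an enzyme that makes a chain-terminating nucleotide, had the most positive difference of all members. It was at 23.9, 69.4 and 37.8 CPM in mild cold and at 26.7, 35.9 and 38.9 CPM at room temperature. Only mild cold 2 exceeded the room temperature range. The fold was 1.29 (95% interval 0.723 to 2.30, adjusted p = 0.614), and the log2 difference of 0.37 moved to -0.13 without that library.

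Parp14, an ADP-ribosyltransferase, was at 53.9, 73.2 and 48.6 CPM in mild cold and 56.2, 59.4 and 58.9 CPM at room temperature, again with mild cold 2 at the top. Eif2ak2 (PKR), the kinase that stops translation on double-stranded RNA, was at 28.3 ± 3.23 CPM in mild cold against 29.3 ± 3.5 CPM at room temperature. Bst2 (tetherin), which holds budding virus at the cell surface, was at 20.4 ± 4.11 and 22.6 ± 2.94 CPM, and the exonuclease Isg20 at 5.54 ± 0.184 and 6.14 ± 1.25 CPM (SD, n = 3 each). These 4 had log2 differences between -0.15 and 0.01.

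Ifi27l2a, which encodes a small hydrophobic protein induced by interferon, had the most negative difference. It was at 17.3, 33.4 and 32.96 CPM in mild cold and at 126, 33.2 and 80.4 CPM at room temperature. Room temperature 1 and 3 were far above all other libraries, while room temperature 2 lay within the mild cold range, so the groups overlapped. The fold was 0.349 (95% interval 0.163 to 0.746), a log2 difference of -1.52 with a standard error of 0.47 and an adjusted p of 0.158. It moved to -1.87 without room temperature 2 and to -1.03 without room temperature 1. Per kilobase of exon, its room temperature level of 172 CPM per kb was the highest of the members, ahead of Bst2 at 25 CPM per kb. Room temperature 1 was also the library with the atrial transcripts, and their part in this value was not tested.

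Of the remaining induced genes, Ifi44, Xaf1, Ifi35 and Rtp4 were each highest of all 6 libraries in mild cold 2. Ifi44 was at 8.21, 14.9 and 7.57 CPM in mild cold and at 8.42, 9.80 and 12.2 CPM at room temperature. Xaf1, which binds an inhibitor of apoptosis, was at 15.9, 24.0 and 13.2 CPM in mild cold and at 16.5, 15.1 and 17.9 CPM at room temperature. Ifi35 was at 11.2 ± 1.44 CPM in mild cold against 11.8 ± 0.574 CPM at room temperature, and Rtp4, a receptor transport protein, at 10.4 ± 2.18 and 10.6 ± 1.34 CPM (SD, n = 3 each). Strand use in the counting is not given in the sources used here, and 16.8% of Ifi35 exon bases lie opposite Gm11626. Rtp4 shares 13.8% of sampled stretches with Gm45338.

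Interferon transcripts themselves were almost undetected. Of 20 listed ligand genes, 17 had no count in any library, which allows at most 0.0408 to 0.0804 CPM per library (3 counts, counting error only; higher if both mates of a fragment were counted). Ifng, the type II interferon, had 1 count in room temperature 1, 4 in room temperature 3 and none elsewhere. Ifnz had 2 counts in mild cold 2 and 4 in room temperature 3, and Ifnab 2 in mild cold 3. None was expressed enough to be tested, so a difference in ligand was not detectable at this depth.

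The 6 receptor genes were all expressed and 0 passed the edgeR test, beside 0% of all genes, with a median log2 difference of 0.01. At an unadjusted p under 0.05 their number was also 0, beside 10.6% of all genes lower and 9.11% higher. Ifnar1 was at 33.7 ± 3.11 CPM in mild cold against 36.4 ± 5.24 CPM at room temperature, and Ifnar2 at 16.6 ± 2.12 and 19.4 ± 1.78 CPM. For the type II receptor, Ifngr1 was at 122 ± 30.7 and 128 ± 28.1 CPM and Ifngr2 at 123 ± 19.5 and 110 ± 24.4 CPM. Ifnlr1 and Il10rb, the type III receptor, were at 3.42 ± 0.960 and 2.41 ± 0.678 CPM and at 55.2 ± 4.83 and 51.6 ± 6.15 CPM (SD, n = 3 each throughout). Mild cold 2 was the highest mild cold library for 5 of the 6.

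Of 13 signalling genes, 0 passed the edgeR test, 1 (Socs3) was lower at an unadjusted p under 0.05, beside 10.6% of all genes, and the median log2 difference was -0.10. The 4 with the smallest p-values were Socs3, Irf8, Ptpn6 and Irf1. Socs3, a feedback inhibitor of cytokine receptors, was at 4.73, 5.63 and 4.34 CPM in mild cold and at 7.55, 6.61 and 5.71 CPM at room temperature, below in every mild cold library (adjusted p = 0.245). Irf8, a myeloid transcription factor, had a log2 difference of -0.55, and the phosphatase gene Ptpn6, expressed in blood cells, one of -0.57. Irf1, a transcription factor gene induced early by interferon, was at 23.0, 35.3 and 23.1 CPM in mild cold and at 22.8, 21.4 and 21.8 CPM at room temperature, with a log2 difference of 0.30 (adjusted p = 0.379). Irf8 and, picked out after its values were seen, Socs1 also did not overlap between groups and were lower in mild cold. Of the 13, 3 were thus lower in every mild cold library, beside 13.1% of all genes. Irf1 was the 1 gene higher in every mild cold library, beside 12% of all genes.

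A list of 18 genes covered innate sensing and its relay, mostly but not only of nucleic acids. Of these, 17 were tested with edgeR and 0 passed, with a median log2 difference of -0.22. At an unadjusted p under 0.05, 4 were lower in mild cold, beside 10.6% of all genes, and 1, the adaptor gene Mavs (log2 difference 0.30), was higher, beside 9.11%. Tlr4, the endotoxin receptor, was at 29.1, 42.8 and 42.8 CPM in mild cold and at 49.4, 59.4 and 59.3 CPM at room temperature. Ikbke, a kinase that phosphorylates Irf3, was at 2.11, 1.58 and 2.72 CPM in mild cold and at 4.74, 3.02 and 4.77 CPM at room temperature. Irf5, which drives inflammatory cytokines in macrophages, was at 5.33, 4.13 and 4.56 CPM in mild cold and at 6.21, 6.85 and 7.86 CPM at room temperature. Each of these 3 was lower in every mild cold library, as were 13.1% of all genes, with log2 differences of -0.55, -0.97 and -0.58 and adjusted p-values of 0.152, 0.152 and 0.154. Tlr9, the DNA sensor of endosomes, had a log2 difference of -1.46 with groups that overlapped (adjusted p = 0.20).

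A further 46 genes known to be induced by type I interferon were examined, of which 45 were tested with edgeR and 0 passed; at an unadjusted p under 0.05, 3 were lower and 1 higher in mild cold, beside 10.6% and 9.11% of all genes. Their median log2 difference was -0.05, and mild cold 2 was the highest mild cold library for 39 of the 45. Herc6, the mouse ligase for Isg15, was at 9.95, 13.4 and 10.2 CPM in mild cold and at 17.8, 18.2 and 15.4 CPM at room temperature, lower in every mild cold library (log2 difference -0.62, adjusted p = 0.113). Helz2, a helicase, was higher in every mild cold library (0.36, adjusted p = 0.191). Of the 45, 2 were lower and 1 higher in every mild cold library, beside 13.1% and 12% of all genes. Apol9a, below 1 CPM in all libraries, and Ifi209, of the DNA-binding PYHIN family, had log2 differences of -2.05 and -0.87 (adjusted p = 0.212 and 0.229). Ifitm1, picked out after its values were seen, was at 25.5 CPM in room temperature 1 and between 3.07 and 4.85 CPM in the other 5.

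Among 25 further genes induced by type II interferon, 24 were tested with edgeR and 0 passed, with a median log2 difference of -0.01, and at an unadjusted p under 0.05, 2 were lower and 1 higher in mild cold, beside 10.6% and 9.11% of all genes. Mild cold 2 was the highest mild cold library for 21 of the 24. Ciita, the regulator of MHC class II genes, was at 1.98, 2.41 and 1.71 CPM in mild cold and at 5.0, 5.42 and 4.58 CPM at room temperature. Cxcl10, a chemokine that draws T cells, was at 0.260, 0.563 and 0.227 CPM in mild cold and at 1.83, 1.68 and 1.12 CPM at room temperature. Both were lower in every mild cold library, with log2 differences of -1.29 and -2.14 and adjusted p-values of 0.0878 and 0.0998. Of the 24, 2 were lower and 1 higher in every mild cold library, beside 13.1% and 12% of all genes.

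Ido1, which degrades tryptophan, was the reverse, at 1.07, 1.07 and 1.31 CPM in mild cold and at 0.213, 0.551 and 0.571 CPM at room temperature (log2 difference 1.36, adjusted p = 0.168). Gbp9, the last of the 4 genes with the smallest p-values, was at 47.4, 74.4 and 40.8 CPM in mild cold and at 38.6, 45.6 and 40.4 CPM at room temperature. Gbp4, picked out after its values were seen, was at 24.1, 70.8 and 22.7 CPM in mild cold and at 36.6, 33.2 and 24.1 CPM at room temperature. Mild cold 2 was the highest library, and mild cold 1 and 3 lay close to room temperature 3.

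Markers of immune and vascular cells moved only in part with the libraries in which the members were high. Most T, B and NK cell markers peaked in other libraries. Summed levels of 4 markers of all leukocytes were 56.6, 67.2 and 55.6 CPM in mild cold and 66.6, 76.8 and 110 CPM at room temperature, and mild cold 2 and room temperature 3 were the highest of their groups for 4 of 4, with a median log2 difference of -0.52. For 8 macrophage markers the sums were 244, 290 and 272 CPM in mild cold and 275, 273 and 415 CPM at room temperature. Mild cold 2 was the highest mild cold library for 6 of these 8, and room temperature 3 the highest of its group for 8 of 8. All 8 had a negative log2 difference, with a median of -0.27. With edgeR 0 passed the test, and 1 was lower at an unadjusted p under 0.05, beside 10.6% of all genes.

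The sum of 5 monocyte markers was 112, 167 and 157 CPM in mild cold and 131, 82.7 and 167 CPM at room temperature, with a median log2 difference of -0.29. Most of that sum was F13a1, at 107, 143 and 146 CPM in mild cold and 118, 70.8 and 134 CPM at room temperature. Ccr2, the next most abundant, was at 4.11, 17.7 and 9.43 CPM in mild cold and 9.15, 10.6 and 29.0 CPM at room temperature. Mild cold 2 was the highest mild cold library for 4 of the 5 monocyte markers and room temperature 3 the highest of its group for 3. For 5 endothelial markers the sums were 920, 1099 and 937 CPM in mild cold and 652, 848 and 950 CPM at room temperature, with mild cold 2 and room temperature 3 the highest of their groups for 5 of 5 and a median of 0.33. The sum of 6 neutrophil markers was 7.38, 15.1 and 3.30 CPM in mild cold and 2.79, 3.14 and 4.47 CPM at room temperature, and 4 of the 6 were expressed enough to be tested, with a median of 2.44. T cell markers summed to between 1.5 and 2.71 CPM in mild cold and 3.12 and 12.5 CPM at room temperature, with 5 of 7 tested and a median of -1.66. In mild cold, library 3 was the highest for 3 of 5 T cell, 3 of 4 B cell and 2 of 3 NK cell markers tested. At room temperature, library 1 was the highest for 4 of 5 T cell and 3 of 3 NK cell markers. Library 2 was the highest there for 3 of 4 B cell markers.

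Heart muscle and liver transcripts ran the other way. Cardiomyocyte sums were 30532, 23624 and 28506 CPM in mild cold and 19594, 24646 and 16841 CPM at room temperature, lowest in mild cold 2 and room temperature 3 within their groups, with a median log2 difference of 0.49. The sum of 5 hepatocyte markers was 185, 6.33 and 265 CPM in mild cold and 10.2, 33.1 and 0.857 CPM at room temperature, again lowest in those libraries, with a median of 3.49. Fibroblast markers, by contrast, were highest in those libraries. They summed to 1094, 1884 and 1758 CPM in mild cold and 1984, 2302 and 2972 CPM at room temperature, with a median of -0.63. Mild cold 2 was the highest mild cold library for 4 of 5 and room temperature 3 the highest of its group for 5 of 5. Atrial markers, of which 1 of 3 was tested, summed to 1730 CPM in room temperature 1 and to between 0.878 and 2.28 CPM in the other 5. The part of these cell types, and of the mitochondrial share, in the levels of the interferon-stimulated genes was not tested.

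**Figure D4:**
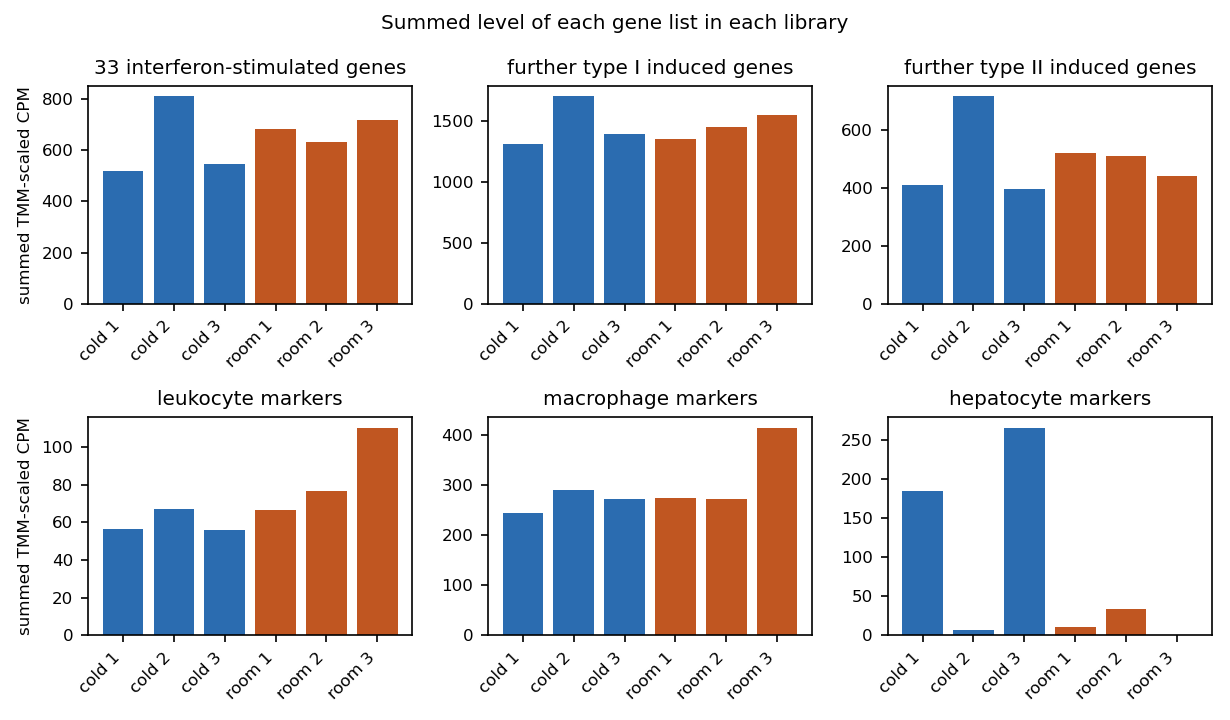
Summed TMM-scaled CPM of 6 gene lists in each of the 6 libraries (bars, mild cold left and room temperature right in each panel). The 33 members and the further type I and type II lists are highest in mild cold 2, leukocyte and macrophage markers are highest in room temperature 3, and hepatocyte markers are highest in mild cold 1 and 3.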

How the data were processed

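The deposited table holds raw counts per gene for 6 libraries, which the authors made with featureCounts 2.0.3 on GRCm39, per the submitters' processing notes. Aligner, annotation release, strand setting and pair handling were not given in the sources used here. RNA was total RNA enriched for mRNA, per the labels' protocols. Of counts from 1 to 10, 71.9% to 78.3% were even. Most fragments may therefore have been counted once per mate, and intervals and limits cover counting error only. A symbol from GENCODE M21 was found for 55141 of 55401 identifiers, and identifiers without one held at most 0.0021% of counts. Exon lengths and shared 50-base stretches also come from that release.

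Counts were tested with edgeR 4.0.16 (filterByExpr, TMM, glmQLFit and glmQLFTest, all 6 libraries, group only), with Benjamini-Hochberg adjustment over all 16757 genes and a threshold of 0.05. DESeq2 1.42.0, limma 3.58.1 (voom), other scalings and filters, a replicate block and leaving out each library were alternatives. The test was run on simulated data for 3 against 3 libraries and 16343 genes: it recovered 7 of 50 genes changed 1.5-fold, 17 of 50 at 2-fold, 36 of 50 at 4-fold and 42 of 50 at 8-fold, with 8 false calls.

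Members and lists were chosen with earlier results of these data known. Every member is named; of each pathway list, the 4 genes with the smallest p are named and all ligands and receptors are accounted for, with exceptions stated in the text; of each marker list, the summed level and, where more than 1 gene was tested, the median are given. Promoter sequences are from RefSeq (GRCm38.p6), and no coordinates of both builds were mixed. Figures were drawn with matplotlib 3.10.9. Groups of 3 libraries were not screened for single outlying values. One gene of the signalling list is not reported here by name.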

Additional observations from a re-analysis of the deposited data

How the results depend on the processing

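No member passed an adjusted p of 0.05 under any scaling, filter, test or left-out library tried. Under 0.1 were Ifi27l2a (0.0689) and Mx1 (0.0857) with library totals, Mx1 (0.0712) and Ifi27l2a (0.0922) with the DESeq2 Wald test, and Ifi27l2a without an expression filter (0.0964) and without room temperature 2 (0.0893). The count over all genes, 0 with edgeR, was 356 with library totals only, 184 without an expression filter, 1414 with the DESeq2 Wald test, 396 at a threshold of 0.1, and 0 to 2 with a library left out. Members lower in mild cold without overlap, 1 with TMM, were 9 with library totals, beside 32.3% of all genes. With a library left out they were 1 to 18, beside 17.0% to 19.6% of all genes. Counted in both directions, members without overlap were 2 without mild cold 3 and 3 without room temperature 2. The median log2 difference of the members ran from -0.31 (without mild cold 2) to 0.044 (without mild cold 3). The labels do not say whether replicate numbers pair the libraries. Same-numbered libraries correlated at 0.11, -0.14 and -0.03 in their deviations from the group means. Differently numbered libraries correlated at -0.42 to 0.39. With so few libraries these values cannot decide whether the libraries were paired. With a replicate block, 1 gene and 0 members passed, the members' median was -0.09, and the sign changed for Oasl1 (-0.031), Ifih1 (-0.0026), Gbp3 (-0.039), Parp14 (-0.012) and Ifi44 (-0.038).

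Of the values of single members under alternatives, 59 changed sign and 435 did not; the cause was not tested beyond the scaling shift of all genes. With library totals the changes were Ifit2 (-0.21), Trim25 (-0.093), Oas2 (-0.20), Oasl1 (-0.26), Ifih1 (-0.26), Gbp2 (-0.17), Gbp3 (-0.23), Parp14 (-0.26), Ifi44 (-0.27) and Xaf1 (-0.17). With at least 1 CPM in 3 libraries they were Oasl1 (-0.0075) and Parp14 (-0.00033). With limma-voom they were Oasl1 (-0.067), Ifih1 (-0.040), Gbp2 (-0.0071), Gbp3 (-0.062), Parp14 (-0.011) and Ifi44 (-0.11). With a library left out, the range crossed 0 for Ifit2 -0.27 to 0.25, Ifit3b -0.45 to 0.29, Isg15 -0.30 to 0.20, Mx2 -0.35 to 0.047, Oas1a -0.41 to 0.027, Oas2 -0.15 to 0.17, Oasl1 -0.31 to 0.18, Irf9 -0.16 to 0.080, Stat2 -0.34 to 0.039, Ifih1 -0.19 to 0.16, Ddx58 -0.13 to 0.031, Gbp2 -0.31 to 0.35, Gbp3 -0.39 to 0.25, Igtp -0.44 to 0.044, Rsad2 -0.13 to 0.67, Isg20 -0.26 to 0.027, Eif2ak2 -0.13 to 0.052, Parp14 -0.18 to 0.13, Ifi44 -0.36 to 0.19, Rtp4 -0.20 to 0.092 and Xaf1 -0.18 to 0.28. In the simulation, 7 of 50 changes of 1.5-fold were recovered. Most members differed by less than that, and recovery at smaller sizes was not simulated. Genes were simulated independently of each other, and the changed ones were drawn from all genes that passed the filter. The members varied together between libraries, so the recovery rates need not hold for them.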

Other observations

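Further marker lists were summed per library, and 0 of their genes passed the edgeR test. The 4 B cell markers summed to 1.89 to 2.42 CPM in mild cold and 2.19 to 5.13 CPM at room temperature, with a median log2 difference of -0.91. The 5 dendritic cell markers summed to 30.1 to 36.7 CPM in mild cold and 26.7 to 38.2 CPM at room temperature, with a median of -0.76. Within their groups, mild cold 2 and room temperature 3 had the highest dendritic cell sums. Room temperature 3 was the highest of its group for 5 of these 5 markers. In mild cold, library 2 was the highest for 3 of them and library 1 for 2. The 5 NK cell markers, of which 3 were tested, summed to 0.650 to 1.13 CPM in mild cold and 0.966 to 1.32 CPM at room temperature, with a median of -0.66. The 4 mural cell markers summed to 1354 to 1487 CPM in mild cold and 1095 to 1218 CPM at room temperature, with a median of 0.16. The 5 erythroid markers summed to 819 to 1027 CPM in mild cold and 392 to 923 CPM at room temperature, with a median of 0.52. The 4 proliferation markers summed to 15.0 to 29.4 CPM in mild cold and 23.0 to 36.5 CPM at room temperature, with a median of -0.30. Over all genes, 10.6% were lower and 9.11% higher in mild cold at an unadjusted p under 0.05 with edgeR. At that level, 1 B cell, 1 dendritic cell and 1 mural cell marker were lower. Higher were 2 mural cell markers and 1 erythroid marker. For NK cell, proliferation and monocyte markers the number was 0. Among the lists described above, 4 of 5 fibroblast, 3 of 5 T cell, 1 of 4 leukocyte and 1 of 8 macrophage markers were lower. The 1 atrial marker tested was lower too. Higher there were 3 of 4 neutrophil, 3 of 5 hepatocyte, 2 of 5 cardiomyocyte and 1 of 5 endothelial markers tested.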
